A study of Mus musculus with 35 samples.

Results

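The 35 genes described here encode parts and targets of the NF-κB pathway: Rel subunits, inhibitors, kinases, receptors and adaptors, feedback regulators, adhesion molecules and chemokines. They were taken from a list of mouse gene symbols drawn up by function, with earlier results of these data known, and all 35 were found among the 33292 genes of the table. RNA was sequenced from podocytes, the epithelial cells that wrap the glomerular capillaries of the kidney, of 35 mice in 6 groups. The genotypes were Lmx1b+/lox, Lmx1bH77L/lox and Lmx1bC118F/lox, called +/lox, H77L/lox and C118F/lox here, and each was treated with either DMSO or bortezomib, an inhibitor of the proteasome. Each group held 6 mice, apart from the bortezomib-treated C118F/lox mice with 5. Lmx1b is a LIM homeodomain transcription factor of podocytes, and H77L and C118F are amino acid exchanges in its LIM domains. The control genotype is labelled WT in the data and +/lox in the series description, so the controls also carried 1 floxed Lmx1b allele and were left with 1 wild-type allele after Cre induction.

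All mice were young adults on a C57BL/6 background. They carried a transgene that expresses the doxycycline-dependent activator rtTA in podocytes, the tetO::Cre transgene and the mT/mG reporter, whose cells switch from red to green upon Cre activity. The drinking water of all mice, controls included, held 2 mg/ml of doxycycline. Bortezomib was injected at 0.3 μg/g every other day from the start of doxycycline, with its solvent DMSO as the control, and green cells were collected by FACS on day 7. The sex of the mice is not given in the labels. Each mouse was a separate library, and levels are given in TPM, a unit corrected for gene length that adds up to the same total in every mouse.

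In resting cells, NF-κB dimers made of Rel subunits are held in the cytoplasm by inhibitors of the IκB family. In the canonical branch, receptors for TNF and related ligands activate the IκB kinase complex, IκB is then degraded by the proteasome, and the freed dimers enter the nucleus and switch on chemokines, adhesion molecules and their own inhibitors. In the noncanonical branch, the kinase encoded by Map3k14 accumulates once Traf2, Traf3 and the ubiquitin ligases Birc2 and Birc3 no longer remove it, and the Nfkb2 product p100 is cut by the proteasome to p52, the partner of Relb. NF-κB activity in podocytes has been linked to the release of chemokines in proteinuric kidney disease. Only transcripts were measured here, so IκB protein and nuclear NF-κB were not.

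The promoters of 9 of the 35 genes (25.7%) held a perfect match to the NF-κB consensus, a motif of 10 bases searched on both strands from 250 bases before to 50 bases after the start of the canonical transcript of each gene, in comparison to 1060 of 21770 protein-coding genes (4.87%) in windows of the same length. Many of these genes are on the list because they are known NF-κB targets, so the share is a description of the list. In Traf3 the match lay only downstream of the start. Relb and Tnfaip3 held a further match downstream of the start, at 36 and 16 bases, that is not shown. The stretches of the other 8 genes are shown because they belong to members at very different levels, from Nfkbia among the highest to Cxcl2, which was mostly listed at 0. Each is read 5′ to 3′ on the strand of the gene from GRCm39, with the match in capitals. The stretches lie at chr7:19363426-19363485 (minus strand) for Relb, chr12:55539433-55539486 (minus strand) for Nfkbia, chr17:45866495-45866554 (plus strand) for Nfkbie, chr10:18891249-18891308 (minus strand) for Tnfaip3, chr9:20926422-20926463 (plus strand) for Icam1, chr5:91039008-91039068 (plus strand) for Cxcl1, chr5:91051636-91051696 (plus strand) for Cxcl2 and chr5:92496817-92496932 (minus strand) for Cxcl10.
Relb: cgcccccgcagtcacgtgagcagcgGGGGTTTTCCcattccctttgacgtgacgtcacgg
Nfkbia: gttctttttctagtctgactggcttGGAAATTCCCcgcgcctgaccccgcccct
Nfkbie: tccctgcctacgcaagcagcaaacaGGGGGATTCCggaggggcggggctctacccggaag
Tnfaip3: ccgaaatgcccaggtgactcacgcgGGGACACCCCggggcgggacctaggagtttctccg
Icam1: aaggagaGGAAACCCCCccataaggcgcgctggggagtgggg
Cxcl1: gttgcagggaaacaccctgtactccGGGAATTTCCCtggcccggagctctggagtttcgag
Cxcl2: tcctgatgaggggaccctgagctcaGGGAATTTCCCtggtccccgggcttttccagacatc
Cxcl10: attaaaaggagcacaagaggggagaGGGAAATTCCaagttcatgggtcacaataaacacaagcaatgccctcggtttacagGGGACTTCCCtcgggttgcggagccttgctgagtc
In Cxcl1 and Cxcl2, 2 matches overlap by all but 1 base, and the run in capitals is the same in both genes. Cxcl10 holds 2 separate matches upstream of the start. A match is a string of letters in this window and does not show that NF-κB binds there. The window of Nfkb2, whose difference between the genotypes had the lowest adjusted p of all members in the DMSO-treated H77L/lox mice, held no match, which says only that these letters do not occur in it.

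Podocyte transcripts were present in every mouse. The summed level of 12 podocyte markers was 27820 to 43600 TPM in DMSO-treated +/lox mice, 7377 to 12510 TPM in H77L/lox mice and 6304 to 14500 TPM in C118F/lox mice, so the podocyte markers themselves were lower in the knock-in lines. Of these markers, 9 were lower and 2 higher in DMSO-treated H77L/lox mice, and 9 were lower and 1 higher in C118F/lox mice. The mesangial and parietal sums were higher in both lines, with DMSO medians of 85.3, 947 and 1013 TPM for the mesangial markers in +/lox, H77L/lox and C118F/lox mice and of 52.9, 126 and 117.7 TPM for the parietal ones. The mesangial rise lay mainly in Des, Myl9 and Pdgfrb, while the mesangial genes Itga8 and Gata3 had medians under 0.25 TPM in all 3 groups. Within the parietal list, Cldn1 and Pax8 made up most of the sum, while Krt8 had lower medians of 0.541 and 0.192 TPM in H77L/lox and C118F/lox mice than the 2.46 TPM of the controls. The sum of the 11 tubule markers had medians of 132.9, 18.9 and 27.0 TPM in the same groups. The endothelial sum was lower, with a range of 1350 to 2084 TPM in the controls and at most 271 TPM in DMSO-treated knock-in mice. In the controls nearly all of it was Cldn5, which had medians of 1814, 79.8 and 59.2 TPM in the same groups. Cdh5 had medians of 0.335, 0.263 and 0.258 TPM. The sum of 271 TPM was that of C118F/lox mouse 1, with Cldn5 at 63.9 TPM and Plvap at 60.7 TPM. Of the leukocyte genes, the common antigen gene Ptprc stayed at or below 0.241 TPM in all mice. The T cell gene Cd3e was listed at 0 in all mice outside the DMSO-treated +/lox group. Other genes of this list were higher, such as Lyz2 at 1.49 to 285 TPM (median 12.2) in DMSO-treated +/lox mice. Its medians were 0.223 and 0.452 TPM in DMSO-treated H77L/lox and C118F/lox mice. At the annotated exon lengths, the smallest steps of TPM gave an estimated depth of 7.85 to 36.0 M (mega) reads per mouse, with a median of 28.5 M reads, which is approximate because the lengths used by the authors are not stated. The lowest estimate belonged to a bortezomib-treated C118F/lox mouse, and the next lowest was 20.7 M reads. Because each group is a bulk of sorted cells, more cells that express a gene and more RNA per cell cannot be told apart.

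A few mice stood apart in the genes of interest. Of the 29 members that were tested in any comparison, mouse 6 of the DMSO-treated H77L/lox group was the highest of its group for 20, mouse 6 of the bortezomib-treated +/lox group for 17 and mouse 5 of the bortezomib-treated C118F/lox group for 24. In the H77L/lox mouse, the summed level of the 6 parietal epithelial markers was 249 TPM, the highest of all 35 mice, and that of the 12 podocyte markers was 7377 TPM, below the 8950 to 12510 TPM of the rest of its group. In the +/lox mouse the parietal markers were at 29.5 TPM, the lowest of all mice, and the summed leukocyte markers at 4.22 TPM. Mouse 1 of the DMSO-treated +/lox group had 542 TPM in the 15 leukocyte markers, where the other 5 mice had 5.82 to 100.3 TPM. Mouse 1 of the DMSO-treated C118F/lox group had 3474 TPM in the 8 mesangial markers, where the other 5 mice had 874 to 1123 TPM. Of this sum, 2166 TPM were the renin gene Ren1. The same mouse had 271 TPM in the endothelial markers, where the other 5 mice had 67.0 to 179 TPM. The part of these differences in the results was not tested, and the main results that rest on one of these mice are given with and without it. Without DMSO-treated +/lox mouse 1, 19 members were called in DMSO-treated H77L/lox mice, with Nfkbib, Ripk1, Tnip1 and Traf2 lost, and 17 in C118F/lox mice, with Nfkb1, Tnip1 and Traf2 lost.

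**Figure D1:**
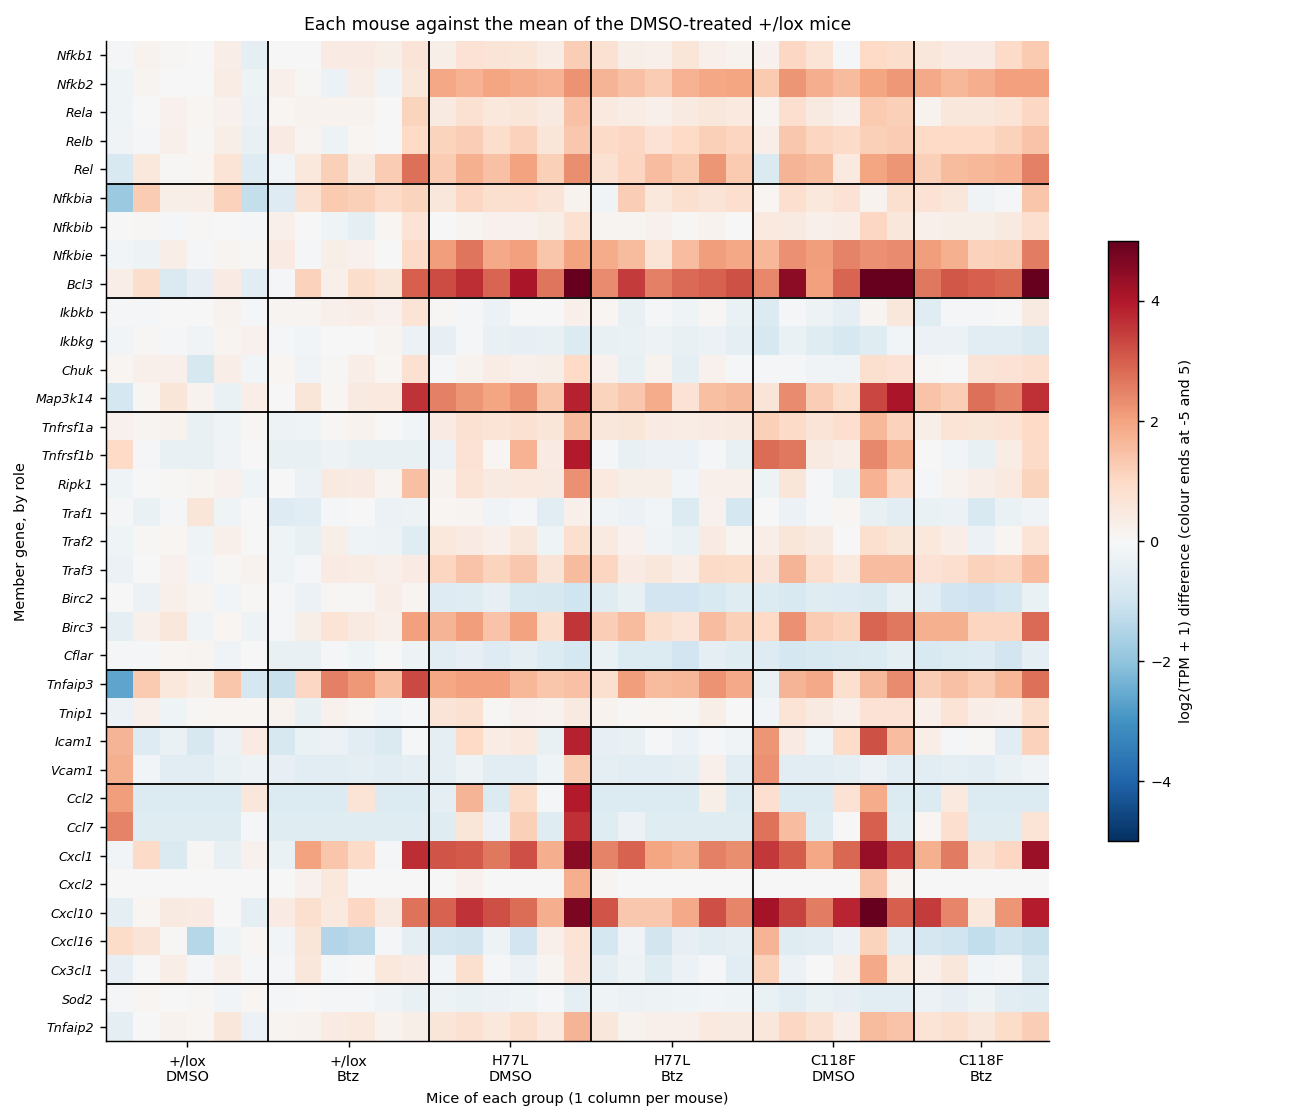
Level of the 35 members (rows, grouped by role) in each of the 35 mice (columns, in 6 groups) as the difference of log2(TPM + 1) from the mean of the 6 DMSO-treated +/lox mice, in colour that ends at 5 in either direction. Nfkb2, Nfkbie, Bcl3, Cxcl1 and Cxcl10 are red in nearly all knock-in mice, Birc2, Cflar and Ikbkg are pale blue in them, and the last column of the bortezomib-treated +/lox group (mouse 6) is red for Rel, Bcl3, Map3k14, Birc3, Cxcl1 and Cxcl10.

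The first question was how the pathway differed between podocytes with a mutant and with a wild-type Lmx1b allele in the absence of bortezomib. For each pair of groups, limma was run on log2(TPM + 1) of the genes that exceeded 1 TPM throughout 1 or both of them. The p-values were adjusted over all of these genes by the Benjamini-Hochberg method, and an adjusted p under 0.05 counted as up- or down-regulation. In DMSO-treated H77L/lox mice, 28 members could be tested, and 19 were up-regulated (67.9%), 4 were down-regulated (14.3%) and 5 did not pass. Of all 10964 genes tested in this comparison, 22.4% were up- and 22.4% down-regulated. In DMSO-treated C118F/lox mice, 16 of 29 members were up-regulated (55.2%), 4 were down-regulated (13.8%) and 9 did not pass, in comparison to 13.7% up- and 16.6% down-regulated among all 10899 genes. The median difference of the members tested was 0.74 in H77L/lox and 0.64 in C118F/lox mice on the log2 scale, and that of all genes -0.01 and -0.06. Bcl3, Map3k14 and Cxcl1 entered the test only through the knock-in groups, which favours genes that are high there, so these shares are a description. Cxcl16 passed in the same way in C118F/lox mice, and Tnfrsf1b, Icam1, Vcam1, Ccl2, Ccl7 and Cxcl2 passed in neither line.

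The same 16 members were up-regulated in both lines (Nfkb1, Nfkb2, Rela, Relb, Nfkbib, Nfkbie, Bcl3, Map3k14, Tnfrsf1a, Traf2, Traf3, Birc3, Tnip1, Cxcl1, Cxcl10 and Tnfaip2) and the same 4 were down-regulated (Ikbkg, Birc2, Cflar and Sod2). Rel, Ripk1 and Tnfaip3 were called in H77L/lox mice only, and no member in C118F/lox mice only. Both comparisons share the same 6 control mice. Under the stricter rule of the study, an adjusted p under 0.001 with an absolute log2 difference above 2, the members that passed were Nfkbie, Bcl3, Map3k14, Cxcl1 and Cxcl10 in H77L/lox mice, where 2.17% of all genes passed, and the same genes without Map3k14 in C118F/lox mice, where 2.27% passed. Of these, Bcl3, Map3k14 and Cxcl1 are the genes that entered the test only through the knock-in groups, so nothing is read from the comparison of these counts with the share of all genes.

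**Figure D2:**
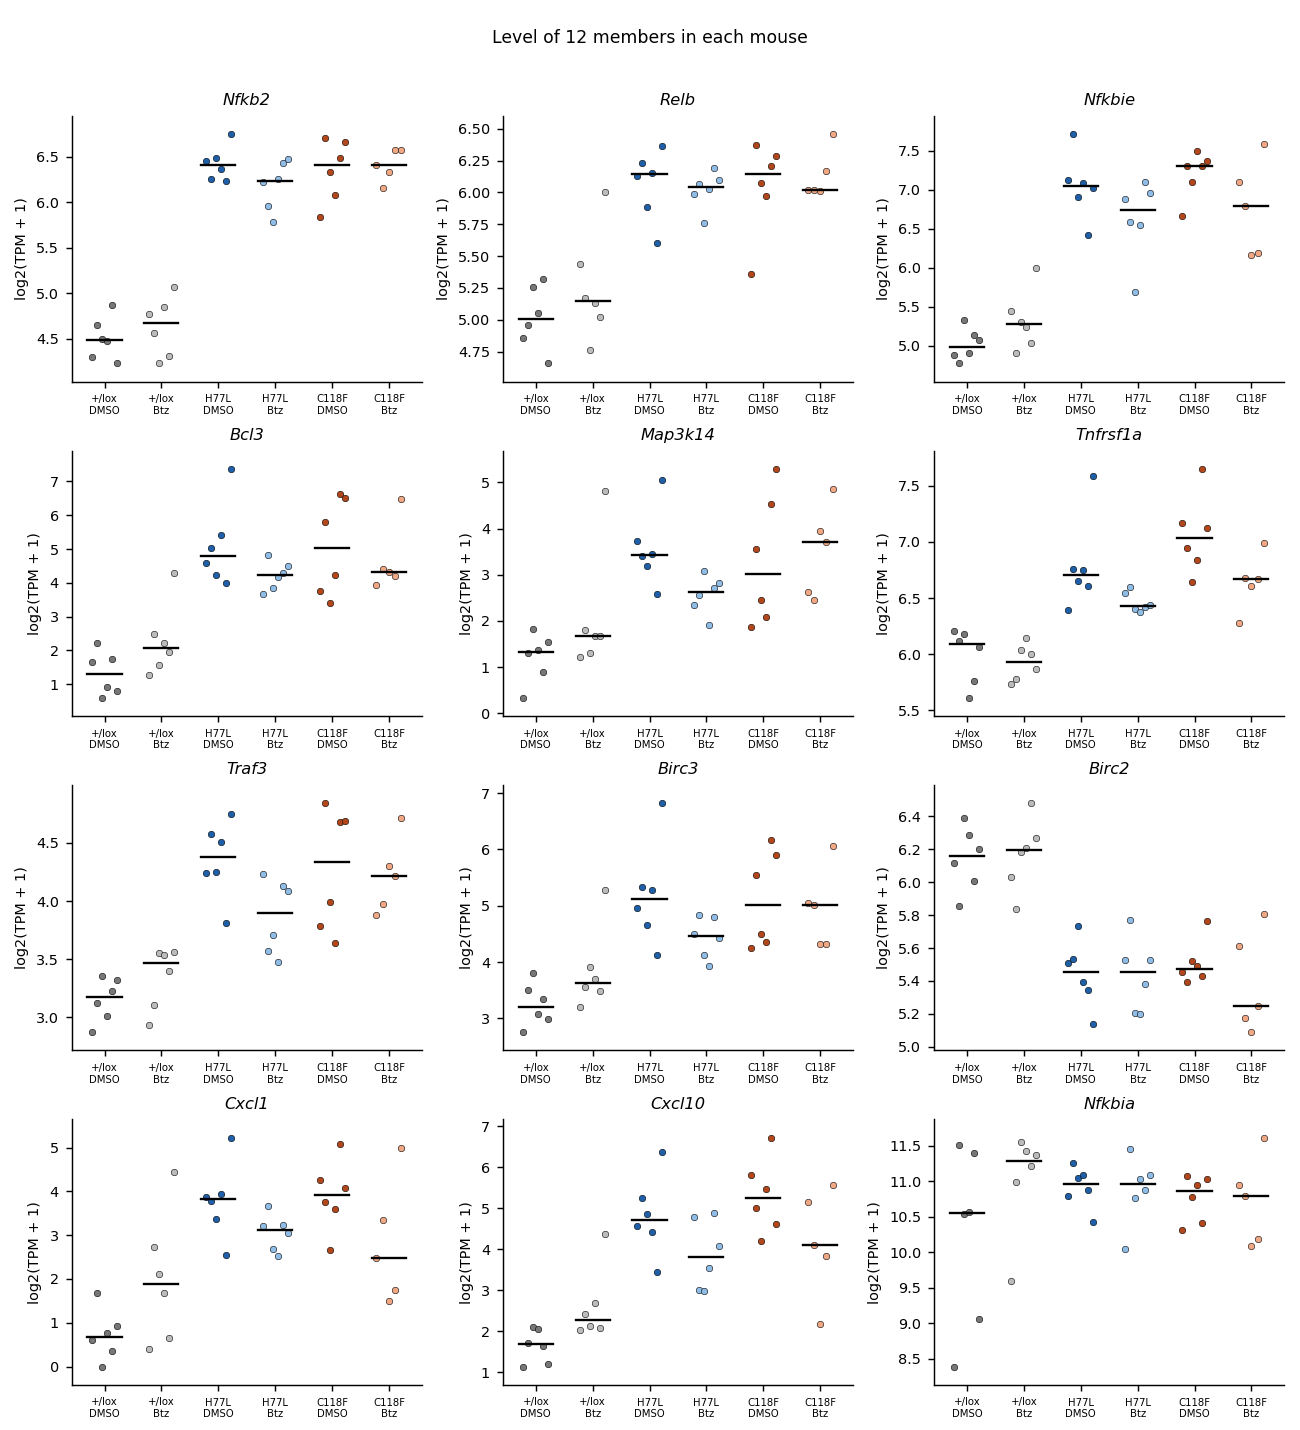
Level of 12 members in each mouse as log2(TPM + 1), with 1 point per mouse and a line at the median of each of the 6 groups. Nfkb2 lies at 17.8 to 32.6 TPM in the +/lox mice and at 54.0 TPM or more in all knock-in mice, whereas Birc2 lies lower in the knock-in groups and Nfkbia overlaps in all groups.

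Among the Rel subunits, the noncanonical pair Nfkb2 and Relb had the lowest adjusted p in both lines. The log2 difference of Rel was larger than that of Relb. Nfkb2 (ENSMUSG00000025225, chromosome 19 of GRCm39, 46292759 to 46303812), which encodes p100, stood at 17.9 to 28.3 TPM (median 21.4) in DMSO-treated +/lox mice, at 74.3 to 106 TPM (median 84.1) in H77L/lox mice and at 56.0 to 103 TPM (median 84.2) in C118F/lox mice. No knock-in mouse overlapped with a control mouse. The difference was 1.92 on the log2 scale in H77L/lox mice (SE 0.12, limma adjusted p = 2.79e-08) and 1.84 in C118F/lox mice (SE 0.16, adjusted p = 1.09e-06). Relb (chromosome 7, 19339017 to 19363425), whose product pairs with p52, rose from 24.2 to 38.9 TPM (median 31.2) in the controls to 47.7 to 81.6 TPM (median 69.6) in H77L/lox mice. Relb in C118F/lox mice was at 40.1 to 81.9 TPM (median 69.8), again without overlap. The log2 differences of Relb were 1.05 (SE 0.14, limma adjusted p = 4.26e-05) and 1.03 (SE 0.17, adjusted p = 0.00037).

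Of the canonical subunits, Rela and Nfkb1 rose by less than Nfkb2 and Relb, which does not hold for Rel. Rela (chromosome 19, 5687493 to 5698161), which encodes p65, the main activating subunit, was at 95.6 to 139 TPM (median 122) in DMSO-treated +/lox mice, 163 to 328 TPM (median 176) in H77L/lox mice and 132 to 292 TPM (median 189) in C118F/lox mice, where the lowest mouse overlapped with the controls. Its log2 differences were 0.72 (SE 0.16, limma adjusted p = 0.00248) and 0.70 (SE 0.19, adjusted p = 0.0133). Nfkb1 (chromosome 3, 135290264 to 135397742), the gene of the p50 precursor p105, was at 3.17 to 6.28 TPM (median 4.79), 5.92 to 12.4 TPM (median 7.76) and 4.55 to 10.8 TPM (median 8.95) in the same groups, and the ranges overlapped. The log2 difference of Nfkb1 was 0.64 in both lines, with a limma adjusted p of 0.0101 in H77L/lox and 0.0373 in C118F/lox mice. The call in C118F/lox mice held in 9 of 19 alternatives, with an adjusted p of up to 0.191.

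Rel, which encodes the subunit c-Rel, was at 1.47 to 5.68 TPM (median 3.38) in the DMSO-treated controls and at 8.59 to 19.9 TPM (median 11.9) in H77L/lox mice without overlap, a log2 difference of 1.67 (SE 0.27, limma adjusted p = 0.000207). The range in C118F/lox mice was 1.52 to 18.3 TPM (median 12.04), the log2 difference was 1.21 (SE 0.44) and the adjusted p of 0.0513 missed the threshold. The lowest C118F/lox value belonged to mouse 1, the one with the high mesangial markers, and without that mouse Rel was called in C118F/lox mice as well. Rel was one of the 2 members gained in this way, the other being Tnfaip3. Mouse 1 also had the lowest mean log2(TPM + 1) of its group in the immediate early genes described below. This mean was 9.47, where the rest of the group had 10.9 to 11.6. The part of these traits in the Rel value was not tested.

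The inhibitors moved unequally. Nfkbie (chromosome 17, 45866585 to 45874661), which encodes IκBε, was at 26.4 to 39.4 TPM (median 30.9) in DMSO-treated +/lox mice, 84.5 to 208 TPM (median 132) in H77L/lox mice and 100.4 to 179 TPM (median 157) in C118F/lox mice. The groups did not overlap, and the log2 differences were 2.02 (SE 0.17, limma adjusted p = 4.44e-07) and 2.19 (SE 0.14, adjusted p = 6.4e-08). Bcl3 (chromosome 7, 19541553 to 19557570), an atypical IκB protein that works in the nucleus with p50 and p52 dimers, had the largest difference of all members on the log2(TPM + 1) scale, whereas by the ratio of medians Cxcl1 was larger in H77L/lox mice (21.8 against 17.8). It was at 0.518 to 3.66 TPM (median 1.54) in the controls, 15.04 to 165 TPM (median 27.3) in H77L/lox mice and 9.51 to 98.6 TPM (median 36.5) in C118F/lox mice.

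All 12 knock-in mice were above all 6 control mice for Bcl3, and the spread within the knock-in groups was wide. The log2 differences of Bcl3 were 3.78 (SE 0.47, limma adjusted p = 2.39e-05) and 3.73 (SE 0.54, adjusted p = 0.000137). The value of 165 TPM belonged to H77L/lox mouse 6, and without this mouse the difference was 3.33 with an adjusted p of 2.48e-06. Nfkbib, the gene of IκBβ, was at 42.3 to 45.8 TPM (median 43.9) in the DMSO-treated controls, and its rises were small, with log2 differences of 0.28 (SE 0.11, limma adjusted p = 0.0439) in H77L/lox and 0.52 (SE 0.12, adjusted p = 0.00539) in C118F/lox mice.

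Nfkbia (chromosome 12, 55535332 to 55539432), the gene of the main canonical inhibitor IκBα and the most abundant member, was not called in either line. In DMSO-treated +/lox mice it spanned 334 to 2918 TPM (median 1498), in H77L/lox mice 1379 to 2462 TPM (median 1999) and in C118F/lox mice 1277 to 2162 TPM (median 1867). The log2 difference was 0.68 (95% interval -0.27 to 1.62, limma adjusted p = 0.228) in H77L/lox and 0.52 (95% interval -0.43 to 1.47, adjusted p = 0.407) in C118F/lox mice. In the controls, the lowest Nfkbia came with the lowest immediate early genes. This is a set of 10 genes such as Fos and Egr1 that respond within minutes to handling and other stimuli. The control mice with the lowest Nfkbia, mouse 1 at 334 TPM and mouse 6 at 531 TPM, had a mean log2(TPM + 1) of 9.30 and 10.6 in these genes, where the median of the group was 11.5. Mouse 1 is also the one with the high leukocyte markers. The link did not hold in every mouse, since DMSO-treated C118F/lox mouse 6 had a mean of 10.9 with Nfkbia at 2096 TPM.

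Tnfaip3, which encodes A20, a ubiquitin-editing enzyme that ends the TNF signal, showed the same spread. It was at 3.40 to 70.9 TPM (median 35.6) in DMSO-treated +/lox mice, with mouse 1 at 3.40 TPM and mouse 6 at 13.6 TPM. In H77L/lox mice it was at 70.6 to 112 TPM (median 94.2), and the log2 difference of 1.76 (SE 0.53, limma adjusted p = 0.0146) was called. It was at 20.4 to 141 TPM (median 84.3) in C118F/lox mice, and the difference of 1.33 (SE 0.62, adjusted p = 0.116) was not. With the immediate early gene mean as a covariate, Tnfaip3 differed by 1.06 (SE 0.16, adjusted p = 0.000186) in H77L/lox and by 1.55 (SE 0.28, adjusted p = 0.000859) in C118F/lox mice, and Nfkbia by 0.11 (adjusted p = 0.638) and 0.66 (adjusted p = 0.0835). The covariate was not free of genotype. Of its 10 genes, 2 were called higher and 1 lower in DMSO-treated H77L/lox mice, and 1 was called lower in C118F/lox mice. C118F/lox mouse 6, with a low mean of 10.9, had Tnfaip3 at 141 TPM. Tnip1, whose product ABIN1 binds A20, rose by 0.38 (SE 0.14, limma adjusted p = 0.0342) and 0.45 (SE 0.16, adjusted p = 0.0423) on the log2 scale.

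Of the 4 kinase genes, Map3k14 (chromosome 11, 103110577 to 103158298), which encodes the NF-κB-inducing kinase NIK, rose. It was at 0.264 to 2.52 TPM (median 1.53) in DMSO-treated +/lox mice, 5.03 to 32.0 TPM (median 9.76) in H77L/lox mice and 2.64 to 38.2 TPM (median 7.66) in C118F/lox mice, and the ranges did not overlap. The log2 differences were 2.36 (SE 0.35, limma adjusted p = 9.49e-05) and 2.09 (SE 0.52, adjusted p = 0.00779). Ikbkg, the gene of the regulatory subunit NEMO of the IκB kinase complex, fell from a median of 38.6 TPM to 29.5 TPM in H77L/lox and 25.2 TPM in C118F/lox mice, with log2 differences of -0.39 (SE 0.11, limma adjusted p = 0.012) and -0.55 (SE 0.135, adjusted p = 0.00684). The catalytic subunits did not pass, Ikbkb with -0.03 (adjusted p = 0.857) and -0.13 (adjusted p = 0.641) and Chuk with 0.33 (adjusted p = 0.202) and 0.16 (adjusted p = 0.633).

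Among the receptors and adaptors, the TNF receptor gene Tnfrsf1a (chromosome 6, 125325566 to 125339632) was at 47.9 to 73.1 TPM (median 67.1) in the DMSO-treated controls, 83.1 to 192 TPM (median 103) in H77L/lox mice and 98.8 to 200.1 TPM (median 131) in C118F/lox mice. All knock-in mice were above all control mice, and the log2 differences were 0.80 (SE 0.17, limma adjusted p = 0.00184) and 1.07 (SE 0.16, adjusted p = 0.000171). Traf3, which restrains NIK, rose from 6.33 to 9.25 TPM (median 8.05) to 13.0 to 25.9 TPM (median 19.9) in H77L/lox and 11.5 to 27.7 TPM (median 19.8) in C118F/lox mice, log2 differences of 1.20 (SE 0.16, limma adjusted p = 3.25e-05) and 1.12 (SE 0.22, adjusted p = 0.00149). Its partner Traf2 rose by 0.40 (SE 0.15, adjusted p = 0.047) and 0.46 (SE 0.15, adjusted p = 0.028). Ripk1, a kinase that carries the TNF receptor signal, rose by 0.76 (SE 0.27, limma adjusted p = 0.0339) in H77L/lox mice and stood 0.45 (SE 0.30, adjusted p = 0.278) higher in C118F/lox mice. Mouse 6 was at 108 TPM for Ripk1, and without it the difference in H77L/lox mice was 0.46 with an adjusted p of 0.00678. Traf1 did not pass in either line. The calls of Ripk1, Traf2, Nfkbib and Tnip1 in H77L/lox mice held in 13, 4, 5 and 10 of 19 alternatives. In C118F/lox mice the calls of Traf2 and Tnip1 held in 11 and 8 of 19.

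The 2 cellular inhibitors of apoptosis, which lie next to each other on chromosome 9, moved in opposite directions. Birc3 (7845790 to 7873229), an NF-κB target that encodes cIAP2, was at 5.75 to 12.9 TPM (median 8.30) in DMSO-treated +/lox mice, 16.5 to 112 TPM (median 33.9) in H77L/lox mice and 18.1 to 71.0 TPM (median 33.7) in C118F/lox mice. Birc2 (7818227 to 7837120), which encodes cIAP1, was at 56.9 to 82.9 TPM (median 70.5), 34.2 to 52.2 TPM (median 42.8) and 41.1 to 53.4 TPM (median 43.4) in the same groups. Neither gene had an overlap between knock-in and control mice. Birc3 rose by 1.95 (SE 0.34, limma adjusted p = 0.000404) and 1.88 (SE 0.33, adjusted p = 0.000639) on the log2 scale, and Birc2 had differences of -0.70 (SE 0.11, adjusted p = 0.000202) and -0.63 (SE 0.11, adjusted p = 0.000624). Cflar, which encodes the caspase-8 inhibitor c-FLIP and is also counted as an NF-κB target, was lower in all knock-in mice, with a median of 50.8 TPM in H77L/lox and 46.7 TPM in C118F/lox mice in comparison to 76.3 TPM in the controls. Its log2 differences were -0.60 (SE 0.09, limma adjusted p = 0.00012) and -0.70 (SE 0.10, adjusted p = 9.8e-05).

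Cxcl1 and Cxcl10 were the chemokines that rose. Cxcl1 (chromosome 5, 91039094 to 91040974), which attracts neutrophils, was at 0 to 2.22 TPM (median 0.604) in DMSO-treated +/lox mice, 4.84 to 36.4 TPM (median 13.2) in H77L/lox mice and 5.37 to 32.8 TPM (median 14.1) in C118F/lox mice. Cxcl10 (chromosome 5, 92494497 to 92496748), which attracts activated T cells and also responds to interferons, was at 1.19 to 3.27 TPM (median 2.19), 9.81 to 81.3 TPM (median 25.3) and 17.4 to 104 TPM (median 37.1). All knock-in mice were above all control mice for both genes, and both lie at levels that rest on few reads, an estimated median over all mice of 65.2 for Cxcl1 and 185 for Cxcl10. The log2 differences of Cxcl1 were 3.06 (SE 0.37, limma adjusted p = 1.74e-05) and 3.18 (SE 0.36, adjusted p = 1.2e-05). Those of Cxcl10 were 3.18 (SE 0.37, limma adjusted p = 1.16e-05) and 3.66 (SE 0.35, adjusted p = 2.72e-06).

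Cx3cl1, the gene of the membrane-bound chemokine fractalkine, did not pass in either line under DMSO. It was at 30.1 to 51.8 TPM (median 39.6) in +/lox mice, 33.1 to 71.2 TPM (median 41.6) in H77L/lox mice and 32.8 to 154 TPM (median 55.3) in C118F/lox mice. The log2 differences were 0.18 (95% interval -0.23 to 0.58, limma adjusted p = 0.466) and 0.61 (95% interval -0.02 to 1.24, adjusted p = 0.135). Of the other 2 targets on the list, Tnfaip2 rose, from a median of 139 TPM to 219 TPM in H77L/lox and 257 TPM in C118F/lox mice, with log2 differences of 0.81 (SE 0.20, limma adjusted p = 0.00519) and 0.96 (SE 0.22, adjusted p = 0.00443). Sod2, the mitochondrial superoxide dismutase and a textbook NF-κB target, fell instead. It was at 62.5 to 74.1 TPM (median 69.8) in the controls, 49.4 to 64.4 TPM (median 57.1) in H77L/lox mice and 46.9 to 55.1 TPM (median 49.7) in C118F/lox mice. The log2 differences of Sod2 were -0.27 (SE 0.08, limma adjusted p = 0.0138) and -0.44 (SE 0.09, adjusted p = 0.00212).

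The adhesion molecule and monocyte chemokine genes that are often taken to report NF-κB activity were near 0 in most mice and could not be tested under the filter. Icam1, a ligand of leukocyte integrins, was at 0 to 4.67 TPM (median 0.423) in DMSO-treated +/lox mice, 0.269 to 24.6 TPM (median 1.38) in H77L/lox mice and 0.533 to 15.1 TPM (median 3.24) in C118F/lox mice. Ccl2, which attracts monocytes, was listed at 0 in 22 of the 35 mice, and its highest value was 23.5 TPM in H77L/lox mouse 6. The neighbouring gene Ccl7 was at 0 in 21 mice and Cxcl2 in 28. Vcam1, another adhesion molecule of activated endothelium, had medians of 0.204, 0.147 and 0.0401 TPM in the 3 DMSO-treated groups.

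In the control group, Icam1, Vcam1, Ccl2 and Ccl7 were highest in mouse 1, the mouse with the high leukocyte markers, at 4.67, 4.07, 5.74 and 7.44 TPM. In the C118F/lox group, Vcam1 was highest in mouse 1 at 6.16 TPM, while the other 5 mice had at most 0.193 TPM. This mouse had the high mesangial markers and the highest endothelial sum of its group. Its Pecam1 and Plvap were at 25.3 and 60.7 TPM, with group medians of 0.437 and 3.51 TPM, while Cldn5 and Ehd3 were not highest in it. The part of other cells in the Vcam1 value was not tested. Without the filter, the limma adjusted p for Icam1 was 0.505 in H77L/lox and 0.184 in C118F/lox mice, for Vcam1 0.851 and 0.982, and for Ccl2 0.521 and 0.816. The one gene of this group that passed without the filter was Tnfrsf1b, the second TNF receptor gene, in C118F/lox mice. Its range was 0 to 1.56 TPM (median 0.197) in the controls and 0.630 to 8.04 TPM (median 4.61) in C118F/lox mice, with a log2 difference of 1.73 (SE 0.46, limma adjusted p = 0.0287).

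**Figure D3:**
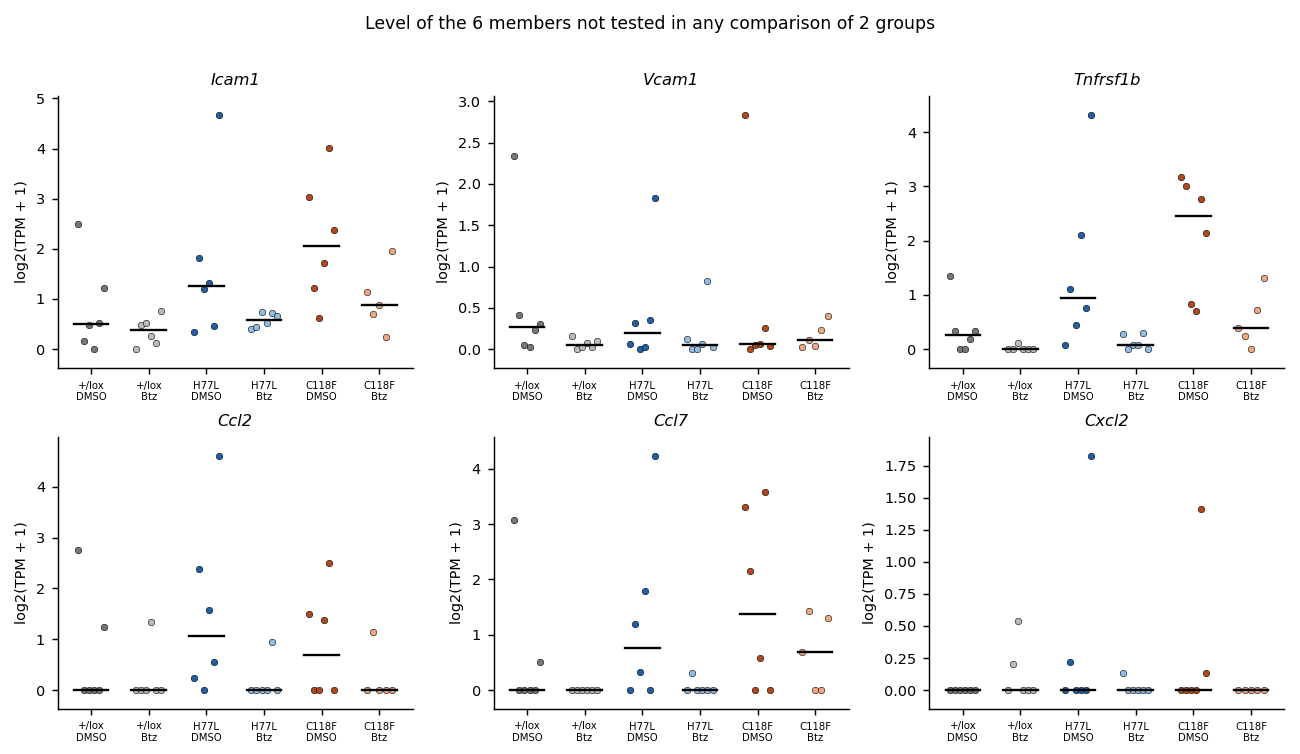
Level of Icam1, Vcam1, Tnfrsf1b, Ccl2, Ccl7 and Cxcl2 in each mouse as log2(TPM + 1), with 1 point per mouse and a line at the median of each of the 6 groups. Most points lie near 0, and the highest values for Icam1, Tnfrsf1b, Ccl2, Ccl7 and Cxcl2 belong to 1 DMSO-treated H77L/lox mouse at 24.6, 19.0, 23.5, 17.8 and 2.55 TPM.

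The next question was how the lines differed from +/lox mice when all mice received bortezomib. In H77L/lox mice, 7 of 27 members tested were up-regulated (25.9%) and 5 down-regulated (18.5%), where 12.5% of all 10805 genes were up- and 11% down-regulated. In C118F/lox mice, 10 of 27 members were up-regulated (37.0%) and 3 down-regulated (11.1%), where 15.1% of all 10916 genes were up- and 12.4% down-regulated. The median difference of the members tested was 0.14 in H77L/lox and 0.49 in C118F/lox mice on the log2 scale, and that of all genes -0.01 and 0.00. Nfkb2, Relb, Nfkbie, Bcl3, Tnfrsf1a, Traf3 and Cxcl10 were up-regulated in both lines, and Ikbkg, Birc2 and Cflar were down-regulated in both. Birc3, Tnip1 and Tnfaip2 were called in C118F/lox mice only and Ikbkb and Cx3cl1 in H77L/lox mice only. A call in 1 line and not in the other does not show a difference between them, which was tested separately.

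Nfkb2, Relb and Traf3 were also higher in both knock-in lines under bortezomib. Nfkb2 was at 17.8 to 32.6 TPM (median 24.5) in bortezomib-treated +/lox mice and at 54.0 to 88.1 TPM (median 74.4) in H77L/lox mice, and the 5 C118F/lox mice had 84.0, 70.4, 79.7, 94.1 and 94.0 TPM. There was no overlap with the controls, and the log2 differences were 1.55 (SE 0.15, limma adjusted p = 1.93e-06) and 1.77 (SE 0.15, adjusted p = 1.08e-06). Relb had differences of 0.77 (SE 0.16, limma adjusted p = 0.00234) and 0.88 (SE 0.18, adjusted p = 0.0025). Traf3 differed by 0.52 (SE 0.17, adjusted p = 0.0348) and 0.87 (SE 0.18, adjusted p = 0.00245), and its call in H77L/lox mice held in 8 of 18 alternatives, with an adjusted p of up to 0.14. In C118F/lox mice, Relb and Traf3 did not pass with the mouse number as a covariate (limma adjusted p = 0.0919 and 0.0917). Of the other genes of the noncanonical branch, Map3k14 and Traf2 passed in neither line.

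Nfkbie was at 29.1 to 62.8 TPM (median 37.8) in bortezomib-treated +/lox mice and 50.4 to 137 TPM (median 106) in H77L/lox mice, and the C118F/lox mice had 136, 110, 70.5, 72.2 and 191 TPM. Its log2 differences of 1.31 (SE 0.22, limma adjusted p = 0.000322) and 1.44 (SE 0.25, adjusted p = 0.000597) both passed. Bcl3 was at 1.41 to 18.8 TPM (median 3.25), 11.8 to 27.6 TPM (median 17.8), and 14.5, 20.4, 18.9, 17.6 and 89.0 TPM. The control value of 18.8 TPM was from mouse 6, and the next highest control was at 4.55 TPM. The differences of Bcl3 were 1.93 (SE 0.39, limma adjusted p = 0.00174) and 2.38 (SE 0.52, adjusted p = 0.00342). With the mouse number as a covariate, Bcl3 did not pass in C118F/lox mice (limma adjusted p = 0.144).

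Cxcl10 was at 3.09 to 19.5 TPM (median 3.85) in bortezomib-treated +/lox mice and 6.92 to 28.2 TPM (median 13.2) in H77L/lox mice, and the C118F/lox mice had 34.3, 16.1, 3.49, 13.3 and 46.6 TPM. The groups overlapped, and the log2 differences were 1.26 (SE 0.41, limma adjusted p = 0.0372) and 1.55 (SE 0.54, adjusted p = 0.0466). These calls were fragile, since the adjusted p of Cxcl10 stayed under the threshold in 6 of 18 alternatives in H77L/lox and in 6 of 17 in C118F/lox mice, with ranges of 0.00201 to 0.169 and 0.00193 to 0.249. Cxcl1 was at 0.328 to 20.6 TPM (median 2.76) in the controls and 4.73 to 11.7 TPM (median 7.75) in H77L/lox mice, and was at 4.59, 9.10, 1.82, 2.34 and 30.6 TPM in C118F/lox mice. The differences of 1.06 (SE 0.51, limma adjusted p = 0.157) and 0.81 (SE 0.71, adjusted p = 0.432) did not pass. Cx3cl1 was lower in all bortezomib-treated H77L/lox mice, at 26.5 to 38.1 TPM (median 31.0), than in the controls at 38.5 to 60.1 TPM (median 47.8), a log2 difference of -0.60 (SE 0.13, adjusted p = 0.00347). Ikbkb, the main catalytic subunit of the kinase complex, differed by -0.44 (SE 0.13, adjusted p = 0.0243) in the same comparison.

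The canonical subunits did not pass under bortezomib. Rela differed by 0.14 (SE 0.15, limma adjusted p = 0.542) in H77L/lox and 0.30 (SE 0.19, adjusted p = 0.258) in C118F/lox mice, and Nfkb1 by 0.11 (adjusted p = 0.683) and 0.44 (adjusted p = 0.123). Tnfrsf1a was still up-regulated, by 0.54 (SE 0.09, adjusted p = 0.000229) and 0.72 (SE 0.12, adjusted p = 0.000635) on the log2 scale. Sod2 had differences of -0.08 (adjusted p = 0.496) and -0.28 (adjusted p = 0.0556), Nfkbia of -0.15 (adjusted p = 0.774) and -0.30 (adjusted p = 0.558), and Tnfaip3 of 0.14 (adjusted p = 0.89) and 0.11 (adjusted p = 0.917), none of which passed. Birc2 and Cflar were down-regulated again, Birc2 with -0.73 (SE 0.12, limma adjusted p = 0.000271) and -0.78 (SE 0.15, adjusted p = 0.00121) and Cflar with -0.40 (SE 0.10, adjusted p = 0.0106) and -0.47 (SE 0.11, adjusted p = 0.0053), as was Ikbkg with -0.31 (adjusted p = 0.0208) and -0.43 (adjusted p = 0.0136). In C118F/lox mice, Birc3 rose by 1.09 (SE 0.36, adjusted p = 0.0364, with a call in 7 of 17 alternatives and an adjusted p of up to 0.391), Tnip1 by 0.50 (SE 0.15, adjusted p = 0.0193) and Tnfaip2 by 0.58 (SE 0.12, adjusted p = 0.0027).

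Control mouse 6 was the highest of its group for many of these genes, for example 259 TPM for Rela where the other 5 controls had at most 135 TPM. Without this mouse, 16 members were called in H77L/lox mice, with Birc3, Cxcl1, Map3k14 and Rela added, and 18 in C118F/lox mice, with Map3k14, Nfkbib, Rel, Rela and Sod2 added. Without mouse 5 of the C118F/lox group, 10 members were called there, with Birc3, Cxcl10 and Tnip1 lost.

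**Figure D4:**
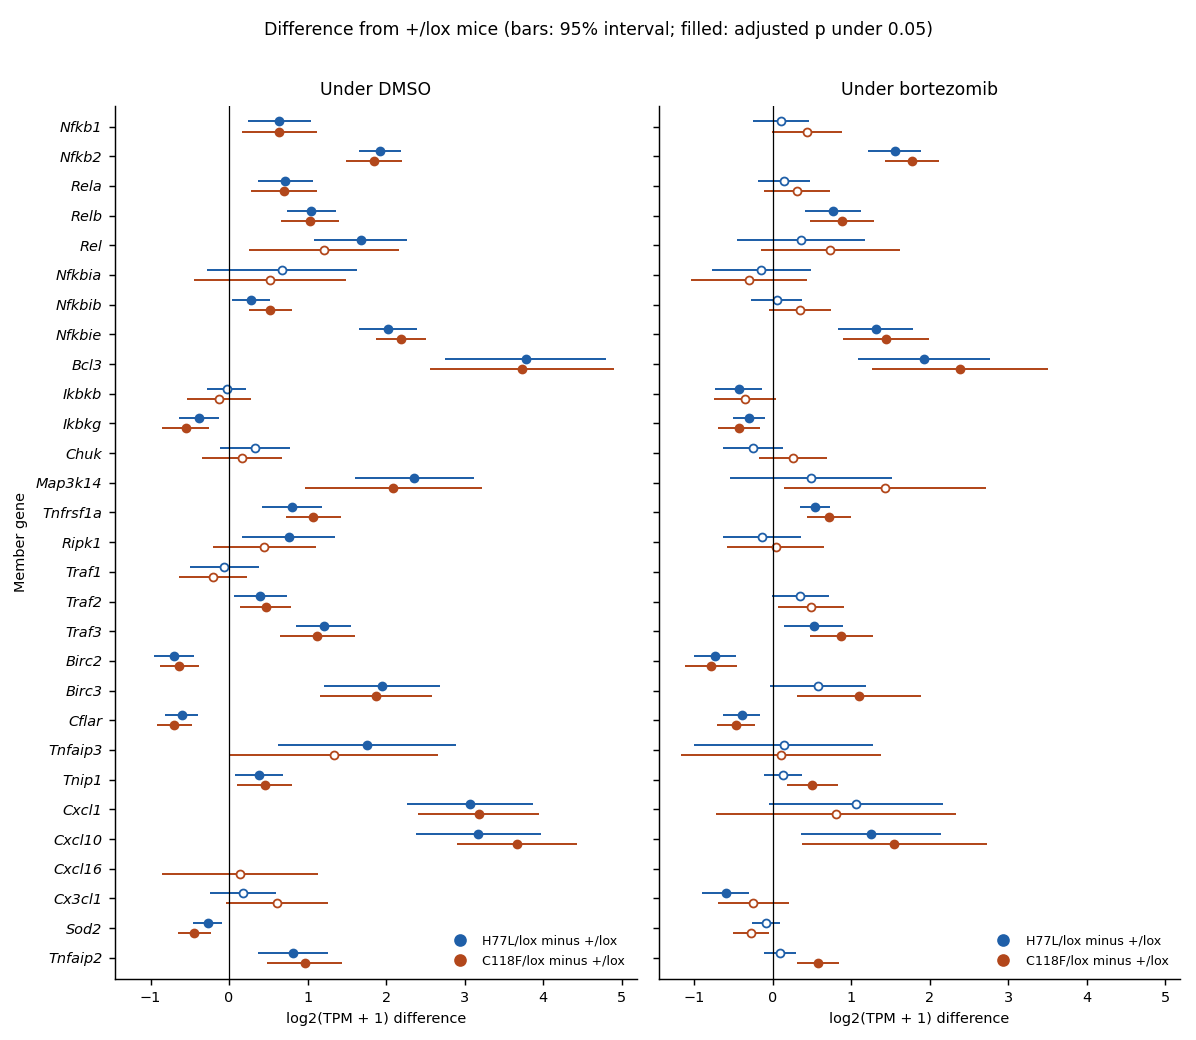
Difference from +/lox mice in log2(TPM + 1) for each member tested, under DMSO (left) and under bortezomib (right), in H77L/lox mice (blue) and C118F/lox mice (orange), with bars for the 95% interval and filled points for an adjusted p under 0.05. The 2 lines lie close together for most genes, Bcl3 has the largest rise under DMSO at 3.78 and 3.73, and Birc2, Cflar and Ikbkg lie left of 0 in both panels.

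The third question was whether bortezomib itself changed these genes within a genotype, since degradation of IκB needs the proteasome. No member passed in any genotype. In +/lox mice 0% of the 10659 genes tested were called, with 923 at an unadjusted p under 0.05, and 6 of the 27 members tested were among those. In C118F/lox mice 0% of 10814 genes were called, with 634 at an unadjusted p under 0.05, and 2 of 29 members were among those. In H77L/lox mice 125 of 10813 genes were called (1.16%), none of them a member. An unadjusted p under 0.05 was found for 2161 of the 10813 genes, and 10 of 27 members were among those.

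The sign of the changes in H77L/lox mice was mostly negative. With TPM as deposited 45 genes rose and 80 fell, and with median-of-ratios scaling 28 rose and 102 fell. Of the 27 members tested, 25 were lower and 2 higher after bortezomib, with a median log2 difference of -0.28, where the median of all genes was 0.00. The members with the lowest adjusted p were Cx3cl1, with a difference of -0.55 (95% interval -0.93 to -0.18, limma adjusted p = 0.102), and Map3k14, with -1.001 (95% interval -1.69 to -0.32, adjusted p = 0.106). Cxcl10 differed by -0.94 (95% interval -1.87 to -0.01, adjusted p = 0.245), Birc3 by -0.76 (adjusted p = 0.219) and Bcl3 by -0.89 (adjusted p = 0.277). Part of these values rests on DMSO-treated mouse 6. Without it, the differences were -0.71 for Map3k14, -0.63 for Cxcl10, -0.44 for Birc3 and -0.43 for Bcl3, and still no member passed. With the immediate early gene mean as a covariate, 2 members passed, Map3k14 with -0.99 (SE 0.25, limma adjusted p = 0.0466) and Tnfaip2 with -0.44 (SE 0.11, adjusted p = 0.0471). Of the 10 genes in this mean, 1 was itself called higher after bortezomib in H77L/lox mice.

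In +/lox mice 20 of 27 members were higher and 7 lower after bortezomib, with a median log2 difference of 0.24. Bcl3 and Map3k14 entered this test only through the bortezomib group and Traf1 only through the DMSO group. This favours genes that are high in the group that let them in. These counts, and the 6 members with an unadjusted p under 0.05, are therefore a description. Cxcl10 rose from a median of 2.19 TPM to 3.85 TPM, a difference of 0.98 (95% interval 0.24 to 1.72) with a limma adjusted p of 0.56 that did not pass. Mouse 6 of the bortezomib group was at 19.5 TPM for Cxcl10 and the next highest at 5.46 TPM. Over the alternatives this difference ran from 0.60 to 1.24. In C118F/lox mice 11 members were higher and 18 lower, with a median of -0.05. Cxcl16 and Traf1 entered the test in C118F/lox mice only through the DMSO group, so these counts are a description as well. There, Cxcl10 differed by -1.14 (95% interval -2.34 to 0.06, adjusted p = 0.813), Tnfrsf1a by -0.42 (95% interval -0.79 to -0.05, adjusted p = 0.813) and Map3k14 by 0.22 (95% interval -1.12 to 1.56, adjusted p = 0.948). Nfkb2 differed by -0.24 (95% interval -0.50 to 0.02, adjusted p = 0.295) in H77L/lox mice.

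**Figure D5:**
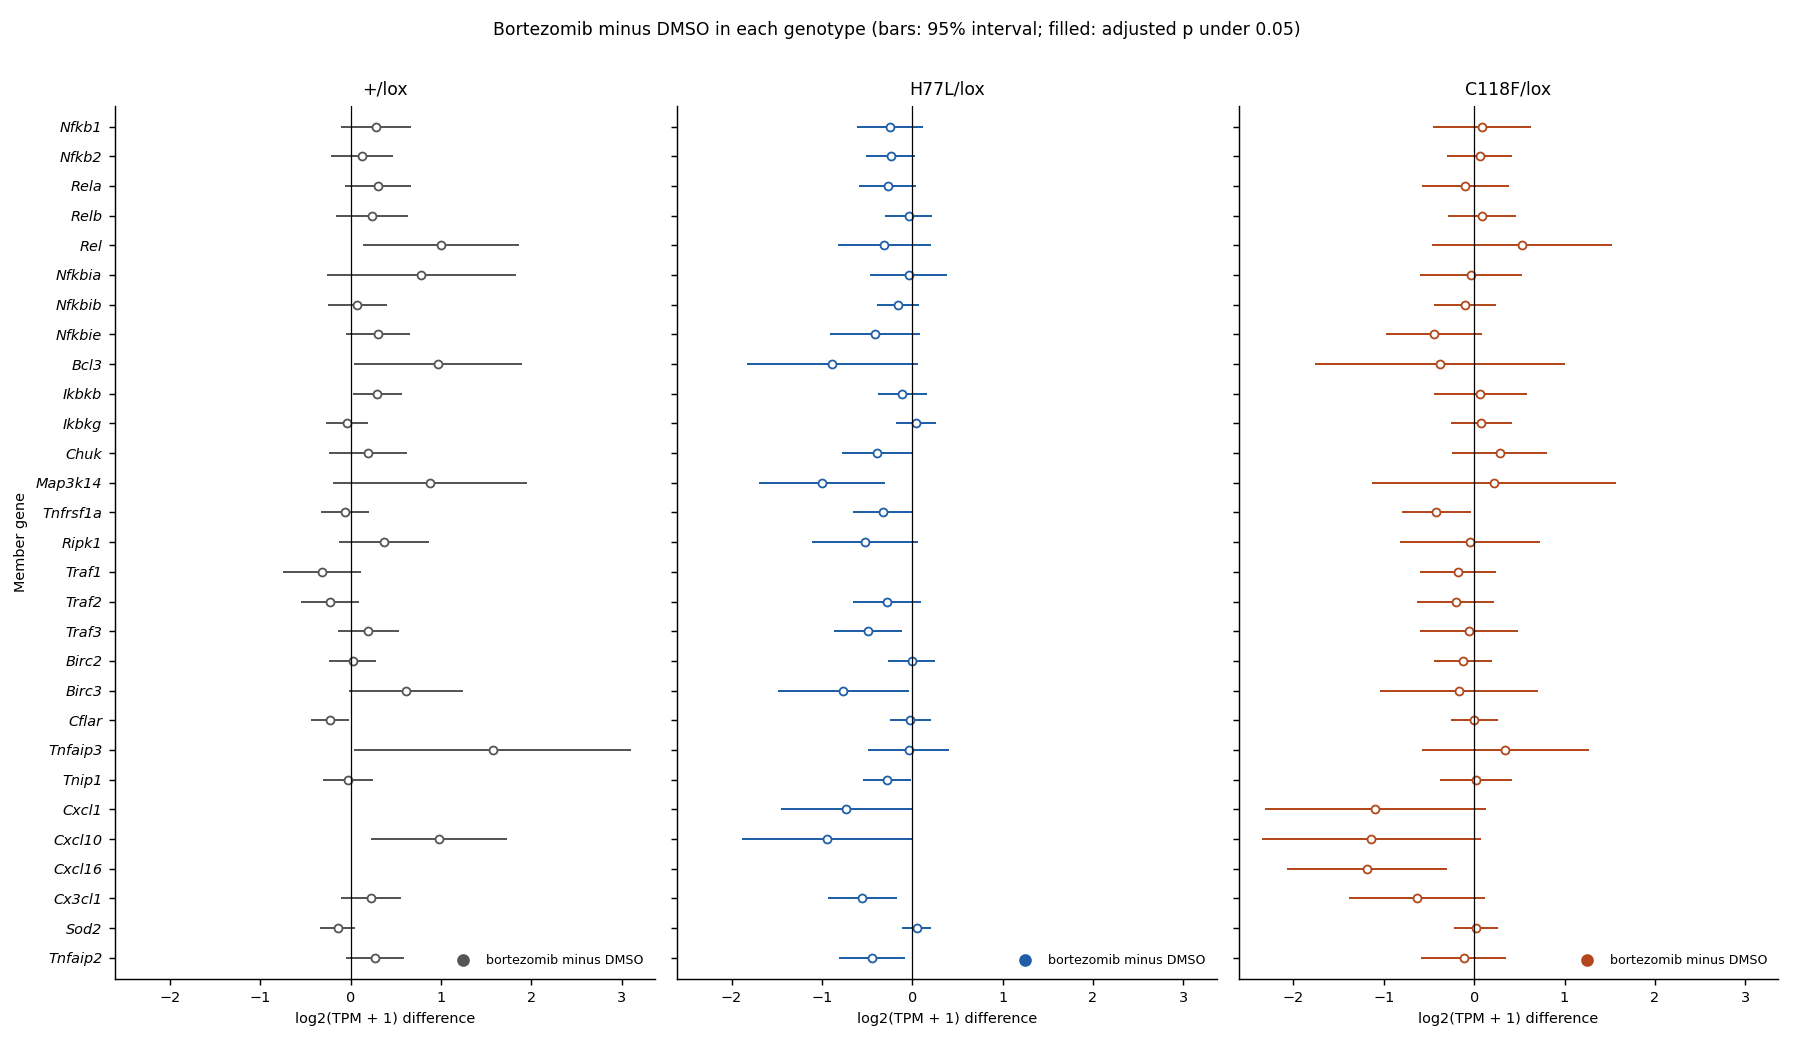
Bortezomib minus DMSO in log2(TPM + 1) for each member tested in +/lox, H77L/lox and C118F/lox mice, with bars for the 95% interval. All points are open because no adjusted p was under 0.05, and in H77L/lox mice 25 of 27 points lie left of 0.

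Whether the response to bortezomib differed between genotypes was tested as an interaction. For H77L/lox against +/lox mice, 0% of 11163 genes passed in limma, with 2037 at an unadjusted p under 0.05. Among 28 members tested, 15 had an unadjusted p under 0.05, and 24 had a negative value. In each interaction, a member could enter the test by exceeding 1 TPM throughout only 1 of the groups. The counts of members are therefore a description. The lowest adjusted p values belonged to Cxcl10, with -1.92 (95% interval -3.15 to -0.69, limma adjusted p = 0.111), and Cx3cl1, with -0.78 (95% interval -1.28 to -0.28, adjusted p = 0.111). For Map3k14 the value was -1.88 (95% interval -3.20 to -0.56, adjusted p = 0.13) and for Bcl3 -1.85 (95% interval -3.22 to -0.48, adjusted p = 0.144). Part of the values of Cxcl10, Map3k14 and Bcl3 rests on mouse 6 of 2 groups. In bortezomib-treated +/lox mouse 6 they were at 19.5, 27.3 and 18.8 TPM, where the rest of its group had at most 5.46, 2.49 and 4.55 TPM. In DMSO-treated H77L/lox mouse 6 they were at 81.3, 32.0 and 165 TPM. Without 1 or the other of these mice, still no member passed. Tnfaip2 passed in 1 of the alternatives, without +/lox mouse 5 of the DMSO group, with -0.83 and an adjusted p of 0.0498.

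For C118F/lox against +/lox mice, 0% of 11197 genes passed, 560 had an unadjusted p under 0.05, and 4 of 29 members had an unadjusted p under 0.05, among them Cxcl10 with -2.12 (95% interval -3.55 to -0.68, limma adjusted p = 0.817) and Cxcl1 with -2.37 (95% interval -4.12 to -0.62, adjusted p = 0.836). Bortezomib-treated +/lox mouse 6 was at 20.6 TPM for Cxcl1, where the next highest of its group was at 5.58 TPM. Without this mouse no member passed either. For H77L/lox against C118F/lox mice, 0% of 11046 genes passed, 840 had an unadjusted p under 0.05, and 1 of 29 members had an unadjusted p under 0.05. For Map3k14 this value was -1.22 (95% interval -2.75 to 0.31, adjusted p = 0.664).

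The knock-in lines were also compared with each other. Under DMSO, 0% of 10809 genes were called, 416 had an unadjusted p under 0.05, and none of the 29 members tested was among those. For Bcl3 the difference of C118F/lox minus H77L/lox mice was -0.05 (95% interval -1.44 to 1.34) and for Cxcl10 0.49 (95% interval -0.50 to 1.47), and for Nfkb1 the 95% interval was -0.47 to 0.47. The interval of Bcl3 reached past 2-fold in either direction. Under bortezomib, 105 of 10803 genes were called (0.972%), none of them a member. Here 1558 genes (14.4%) had an unadjusted p under 0.05, and 6 of 27 members were among those. Map3k14 was at 2.77 to 7.43 TPM (median 5.19) in H77L/lox mice and at 5.16, 4.48, 14.5, 12.02 and 28.0 TPM in C118F/lox mice, a difference of 0.95 (95% interval 0.17 to 1.74, limma adjusted p = 0.253) that did not pass.

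A list of 83 further genes of the pathway (Toll-like receptors and their adaptors, TNF family ligands and receptors, ubiquitin ligases and more targets) gave the setting for the 35. In DMSO-treated H77L/lox mice 22 of 50 tested were up- and 7 down-regulated, and in C118F/lox mice 18 of 51 were up- and 5 down-regulated, beside the 22.4% up- and 22.4% down-regulated of all genes in H77L/lox and the 13.7% and 16.6% in C118F/lox mice. As with the members, a gene could enter the test through the knock-in group alone. This favours genes that are high there, so these counts are a description. Called in both lines were 17 up- and 5 down-regulated genes. The largest mean rises among them were those of Csf1, the macrophage growth factor gene, and of the receptors Tlr2 and Tlr4. Csf1 was at 1.58 to 5.24 TPM (median 2.87) in the controls, 20.8 to 141 TPM (median 53.3) in H77L/lox mice and 20.7 to 107 TPM (median 73.3) in C118F/lox mice, with log2 differences of 3.71 (SE 0.40, limma adjusted p = 5.33e-06) and 3.87 (SE 0.38, adjusted p = 3.28e-06).

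Tlr2, a receptor for bacterial lipoproteins, rose by 3.30 (SE 0.43, limma adjusted p = 3.27e-05) and 3.94 (SE 0.37, adjusted p = 2.29e-06), and Tlr4, the receptor for lipopolysaccharide, by 2.28 (SE 0.27, adjusted p = 1.34e-05) and 2.42 (SE 0.37, adjusted p = 0.000221). The leukocyte marker Ptprc had a median of 0 in both DMSO-treated knock-in groups, and the summed leukocyte markers had medians of 13.0 and 12.1 TPM there in comparison to 27.9 TPM in the controls. Another gene of that list, Csf1r, which encodes the receptor for the Csf1 product, went the other way, with medians of 3.67 TPM in the controls, 10.8 TPM in H77L/lox and 8.33 TPM in C118F/lox mice. Of the 2 leukocyte markers that could be tested in each line, 1 was called higher in each, and the other was called lower in C118F/lox mice. The part of leukocytes in the rises of Csf1, Tlr2 and Tlr4 was not tested. The largest mean falls were those of Tab2, an adaptor of the kinase TAK1, with -0.85 (SE 0.12, limma adjusted p = 5.56e-05) and -0.83 (SE 0.14, adjusted p = 0.00049), of Tnfrsf21, a death receptor gene, with -0.54 (adjusted p = 0.0085) and -0.79 (adjusted p = 0.00381), and of Rbck1, which encodes a subunit of the linear ubiquitin ligase, with -0.54 (adjusted p = 0.000152) and -0.43 (adjusted p = 0.00531).

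In this longer list, 2 of 50 genes tested passed between bortezomib and DMSO in H77L/lox mice, where 1.16% of all genes passed, and both fell. Csf1 went from 20.8 to 141 TPM (median 53.3) under DMSO to 7.63 to 21.1 TPM (median 13.8) under bortezomib, a log2 difference of -1.96 (SE 0.40, limma adjusted p = 0.0352). Tlr4 went from 4.46 to 12.5 TPM (median 6.48) to 1.43 to 4.28 TPM (median 2.06), a difference of -1.25 (SE 0.245, adjusted p = 0.0352). Without DMSO-treated mouse 6 the differences were -1.67 for Csf1 and -1.10 for Tlr4, each with an adjusted p of 0.0428. Tlr2 differed by -1.68 (SE 0.39, adjusted p = 0.0503) and did not pass. In C118F/lox mice the same genes had differences of -1.05 (adjusted p = 0.813) for Csf1 and -0.89 (adjusted p = 0.813) for Tlr4, and no gene of the list passed in the interactions.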

How the data were processed

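SMART-Seq libraries of poly(A) RNA were sequenced from 1 end by the authors, who trimmed the reads with Trim Galore 0.6.7, aligned them to GRCm39 with STAR, used Picard and counted reads per gene with featureCounts 1.6.3. The values the authors deposited are TPM per gene and mouse. How TPM were computed from the counts, and with which gene lengths, is not given in the sources used here, so a count test was not possible and depth is an estimate. Counting by strand is not given either, so reads of overlapping antisense genes may be included.

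Values were transformed to log2(TPM + 1), which understates the change of low genes. The model was limma 3.58.1 under R 4.3.3, with lmFit and a trended eBayes. Each fit held only the mice of its own groups and the genes that exceeded 1 TPM throughout 1 or more of these groups, and p-values were adjusted by Benjamini-Hochberg over all genes. Intervals are 95% intervals of that fit. The fit was tested on simulated data. Symbols, positions and promoters are from GENCODE vM39 on GRCm39, where 32776 of the 33292 identifiers were found. Replicates were numbered in accession order and share no pairing. Figures used matplotlib 3.10.9 in Python 3.11.15.

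The members and lists were chosen with earlier results of these data known. Values are given for 12 core members, for every member called in a comparison, and for the 3 largest changes in each direction, by the mean of both lines under DMSO, of the longer list. Genes near 0 were described beyond this rule. Members of 7 marker lists (podocyte, leukocyte, endothelial, mesangial, tubule, parietal, immediate early) were all found. The alternatives were a pseudocount of 0.1, no filter, 1 fit of all 35 mice, mouse number as a covariate, median-of-ratios scaling and each mouse left out. Added after the data were seen were the immediate early mean as a covariate and a fit without the mice highest in leukocyte and endothelial markers.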

Additional observations from a re-analysis of the deposited data

Results flagged for a closer look

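Combinations of a member and a group are not independent, because the members share the same mice. The 8.8 that chance gives at about 1 in 20 is therefore no yardstick for their count. In groups of 5 or 6 mice, the highest or lowest mouse stood apart from the rest by Dixon's test in 17 of 177 such combinations. Of these, 5 came from mouse 6 of the DMSO-treated H77L/lox group, which was the highest of its group with 328.4 TPM for Rela, 191.5 TPM for Tnfrsf1a, 107.8 TPM for Ripk1, 24.58 TPM for Icam1 and 438.1 TPM for Tnfaip2. Another 5 came from mouse 6 of the bortezomib-treated +/lox group, the highest with 259.2 TPM for Rela, 22.43 TPM for Ikbkb, 27.31 TPM for Map3k14, 37.97 TPM for Birc3 and 19.48 TPM for Cxcl10. Mouse 5 of the bortezomib-treated C118F/lox group was the highest for Bcl3 at 88.99 TPM and for Tnfaip3 at 184.8 TPM. The remaining values were a low 771.2 TPM for Nfkbia in bortezomib-treated +/lox mouse 1, a high 15.38 TPM for Ikbkb in DMSO-treated +/lox mouse 5, a high 3.55 TPM for Traf1 in DMSO-treated +/lox mouse 4, a low 0.7434 TPM for Traf1 in bortezomib-treated C118F/lox mouse 3 and a high 53.37 TPM for Birc2 in DMSO-treated C118F/lox mouse 6.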

How the results depend on the processing

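No member that was called between a knock-in line and +/lox mice changed its sign under an alternative. Differences that were not called did in places: Map3k14 between bortezomib and DMSO in C118F/lox mice ran from -0.77 to 0.62, and Bcl3 between the lines under DMSO from -0.37 to 0.40. Of the members called between H77L/lox and +/lox mice under DMSO, 23 became 13 with the mouse number as a covariate, 19 to 22 without 1 mouse in turn and 18 to 23 otherwise. For C118F/lox mice, 20 became 17 to 22 without 1 mouse and 16 to 22 otherwise. The calls lost with the mouse number were those of Nfkb1, Rela, Nfkbib, Ikbkg, Ripk1, Traf2, Tnfaip3, Tnip1, Sod2 and Tnfaip2 in H77L/lox mice. In C118F/lox mice they were those of Nfkb1, Rela, Traf2 and Tnip1. Under bortezomib, 12 in H77L/lox mice became 9 to 16 without 1 mouse and 9 to 12 otherwise, and 13 in C118F/lox mice became 6 with the mouse number and 10 to 18 without 1 mouse. The calls lost with the mouse number in these C118F/lox mice were those of Relb, Bcl3, Ikbkg, Traf3, Birc3, Tnip1, Cxcl10 and Tnfaip2, while another member was added. Between bortezomib and DMSO in H77L/lox mice, 0 became 2 with the immediate early mean as a covariate. C118F/lox against H77L/lox mice under bortezomib gave 0 to 1 without 1 mouse in turn (Tnfaip2, without C118F/lox mouse 1), and so did the interaction of H77L/lox and +/lox mice, 0 to 1 (Tnfaip2, without DMSO-treated +/lox mouse 5). The other comparisons gave 0 throughout. The cause was not tested. Mouse numbers partly follow genotype, with group medians of 46512.5 and 46944 in +/lox mice, 48202.5 and 47992 in H77L/lox mice and 47411.5 and 50091 in C118F/lox mice under DMSO and bortezomib. No paired analysis was possible because the labels give each mouse only its own number. TPM keep no depth, so the precision of genes near 0 is limited.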
